A study of Mus musculus with 4 samples.

Results

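Regulatory T cells (Treg) from the spleens of NOD mice given the proteins OX40L and Jagged-1 were compared with Treg from NOD mice given PBS, by whole-genome bisulfite sequencing. The comparison was made over every CpG position read at least 5 times in both Treg libraries. The genome was divided into fixed windows of 1 kb, and a window was used when it held at least 5 such positions. This gave 441509 windows of the 2430003 that held any listed position (18.2%), and 442 Mb of genome was covered by them. The difference between the libraries is given in percentage points as OX40L-JAG1 minus PBS, with negative values where the OX40L-JAG1 library was less methylated.

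The NOD strain develops autoimmune diabetes. Mice in both groups entered the study at 6 weeks of age, were dosed weekly for 3 weeks and were sampled at 10 weeks of age, 1 week after the last dose. PBS was the vehicle control, and the treated mice received both proteins together, so that the 2 proteins cannot be told apart. Treg were sorted as CD4+CD25hi cells and effector T cells (Teff) as CD4+CD25- cells, and each of the 4 combinations of treatment and cell type was 1 library. The number of mice behind a library is not given in the sources used here. With 1 library per group, every interval and p-value below compares 2 libraries and covers counting error only.

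CpG methylation is a covalent mark on cytosine that is copied when DNA is replicated, and active promoters and enhancers usually carry less of it than their surroundings. In Treg, sustained expression of Foxp3, the transcription factor that defines the lineage, depends on a demethylated element inside its own gene. OX40L is the ligand of OX40 (Tnfrsf4), a costimulatory receptor that Treg carry at rest and that signals through TRAF adaptors to NF-kB. Jagged-1 binds receptors of the Notch family, whose cleaved intracellular part acts with Rbpj on targets such as Hes1. A methylation level here is an average over cells and alleles, so that a change in the mix of cells and a change within cells cannot be told apart.

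The sequences of 4 promoters are shown first, because they were read base by base in the same libraries and the results return to them. Each is the 250 bases before a RefSeq start site (GRCm38.p6), 5′ to 3′ on the strand of the gene, and capitals mark the cytosines read at least 5 times in both Treg libraries, a C on the strand shown and a G for a cytosine on the other strand. Chic1, which encodes a palmitoylated cysteine-rich protein, lies at chrX:103356226-103356475 on the plus strand. Bcorl1, which encodes a transcriptional corepressor, lies at chrX:48341108-48341357 on the plus strand. Peg3, an imprinted zinc finger gene transcribed from the paternal allele, lies at chr7:6730420-6730669 on the minus strand. The gene model 1600014C10Rik lies at chr7:38183537-38183786 on the plus strand.
Chic1: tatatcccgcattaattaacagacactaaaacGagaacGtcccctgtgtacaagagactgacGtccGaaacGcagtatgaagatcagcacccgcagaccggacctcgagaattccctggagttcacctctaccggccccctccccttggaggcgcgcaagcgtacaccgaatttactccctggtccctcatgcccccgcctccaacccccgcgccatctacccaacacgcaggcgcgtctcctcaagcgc
Bcorl1: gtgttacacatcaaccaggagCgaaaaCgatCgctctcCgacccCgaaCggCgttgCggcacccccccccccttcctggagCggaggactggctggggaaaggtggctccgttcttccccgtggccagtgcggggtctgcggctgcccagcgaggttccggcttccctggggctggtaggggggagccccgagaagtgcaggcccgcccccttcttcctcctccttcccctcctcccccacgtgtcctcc
Peg3: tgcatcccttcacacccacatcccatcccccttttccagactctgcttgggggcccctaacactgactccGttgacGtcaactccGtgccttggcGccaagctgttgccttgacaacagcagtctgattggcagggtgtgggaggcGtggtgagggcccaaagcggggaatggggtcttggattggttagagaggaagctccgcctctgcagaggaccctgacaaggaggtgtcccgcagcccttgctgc
1600014C10Rik: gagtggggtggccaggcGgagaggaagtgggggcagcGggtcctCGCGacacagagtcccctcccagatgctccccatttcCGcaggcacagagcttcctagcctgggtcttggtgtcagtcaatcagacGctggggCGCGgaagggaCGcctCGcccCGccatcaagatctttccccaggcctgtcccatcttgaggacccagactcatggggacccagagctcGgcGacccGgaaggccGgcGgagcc

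In the Chic1 promoter the level was 81.1% with PBS (37 reads summed over 5 positions) and 13.3% with OX40L-JAG1 (30 reads). All 5 positions were lower, from 71.4 to 87.5% in the PBS library and from 0 to 16.7% in the OX40L-JAG1 library. These positions stand close enough together for 1 read to span several, and each had 6 reads in the OX40L-JAG1 library, so that the summed reads come from few molecules. In the Bcorl1 promoter all 9 positions were lower, at 34.8% of 201 reads with PBS and 8.33% of 84 reads with OX40L-JAG1. In the 250 bases before the Peg3 start site all 5 positions were lower, at 83.3% of 36 reads and 48.3% of 29 reads. In the 1600014C10Rik promoter 17 of 24 positions were higher and 5 lower, and the level went from 40.4% of 272 reads to 61.3% of 181 reads. The strands of this promoter differed. The 16 positions shown as G went from 40 to 70.3%, while the 8 shown as C went from 41.4 to 32.6%.

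The OX40L-JAG1 Treg library was less methylated than the PBS Treg library across the genome. Over the 6078766 positions read in both (24.0% of those in the table), 84.8% of reads were methylated in PBS Treg (95% Wilson interval 84.77 to 84.79%) and 82.0% of them in OX40L-JAG1 Treg (82.04 to 82.05%), which is -2.73 points. The share of positions with a level of 80% or above was 78.4% in the PBS library and 72.9% in the OX40L-JAG1 library. Positions between 20 and 80% rose from 16.9 to 22.1% of all, and those under 20% went from 4.71 to 5.03%. The median window stood at 90.6% in the PBS library and 87.6% in the OX40L-JAG1 library, and the median of the window differences was -2.17 points. The median difference was below 0 on all 19 autosomes, from -2.37 points on chromosome 3 to -1.74 points on chromosome 19, and was -3.02 points on the X chromosome.

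The libraries differed in depth. The listed positions held 131555634 reads in the PBS library and 103584075 in the OX40L-JAG1 library, and the median window held 72 and 61 reads. On the mitochondrial genome, which is taken as nearly unmethylated and so reads incomplete conversion, 0.635% of reads were methylated in the PBS library and 0.620% in the OX40L-JAG1 library. The part of depth in the genome-wide difference was not tested.

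**Figure D1:**
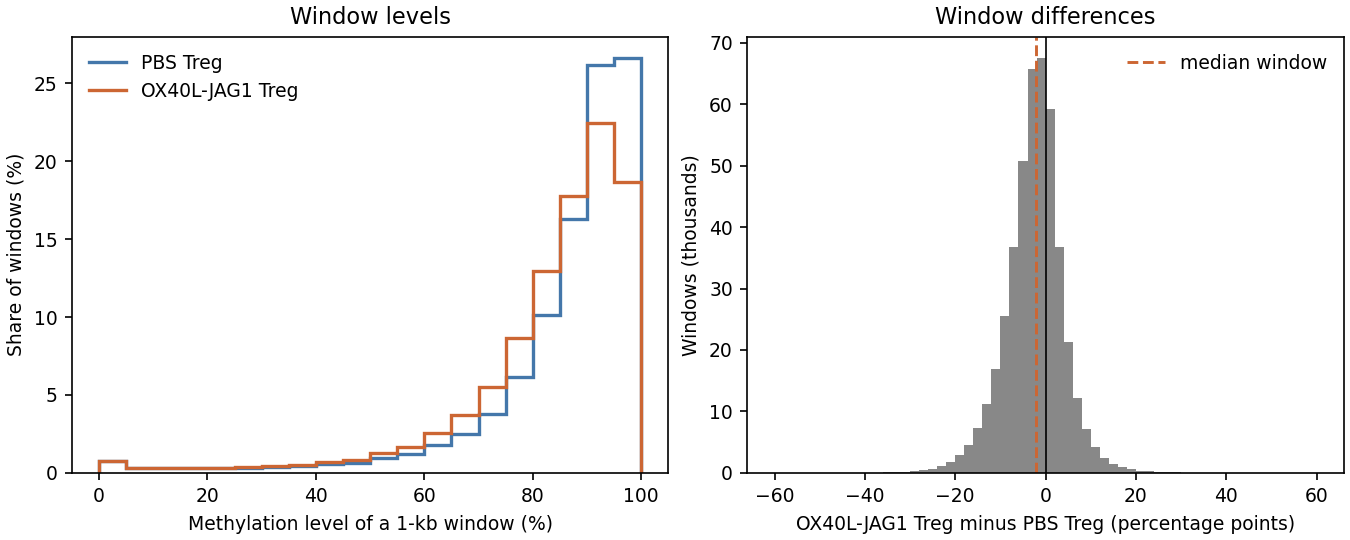
Left, share of the 441509 windows of 1 kb (y axis, percent) at each methylation level (x axis, percent) in PBS Treg and OX40L-JAG1 Treg. Right, number of windows (y axis, in units of 1000) by OX40L-JAG1 minus PBS difference (x axis, percentage points), with the median window at -2.17 points dashed. The OX40L-JAG1 library holds fewer windows above 90% and more between 60 and 90%.

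The shift was not the same everywhere. Windows whose centre lay within 500 bp of a start site had a median difference of -0.458 points, and the median went to -2.97 points beyond 100 kb. In gene bodies the median was -1.67 points, in the 5-kb flanks of genes -2.10 points and outside both -2.87 points. Windows were also grouped by their level in PBS Teff, a library outside this comparison. Those under 20% there had a median difference of 0.185 points, those at 20 to 80% one of -2.75 points and those at 80% or more one of -2.13 points. Among windows with 20 or more positions the median was -0.600 points, and it was -2.48 points among those with 5 to 6. These groups overlap, since windows near start sites hold more positions and are less methylated.

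**Figure D2:**
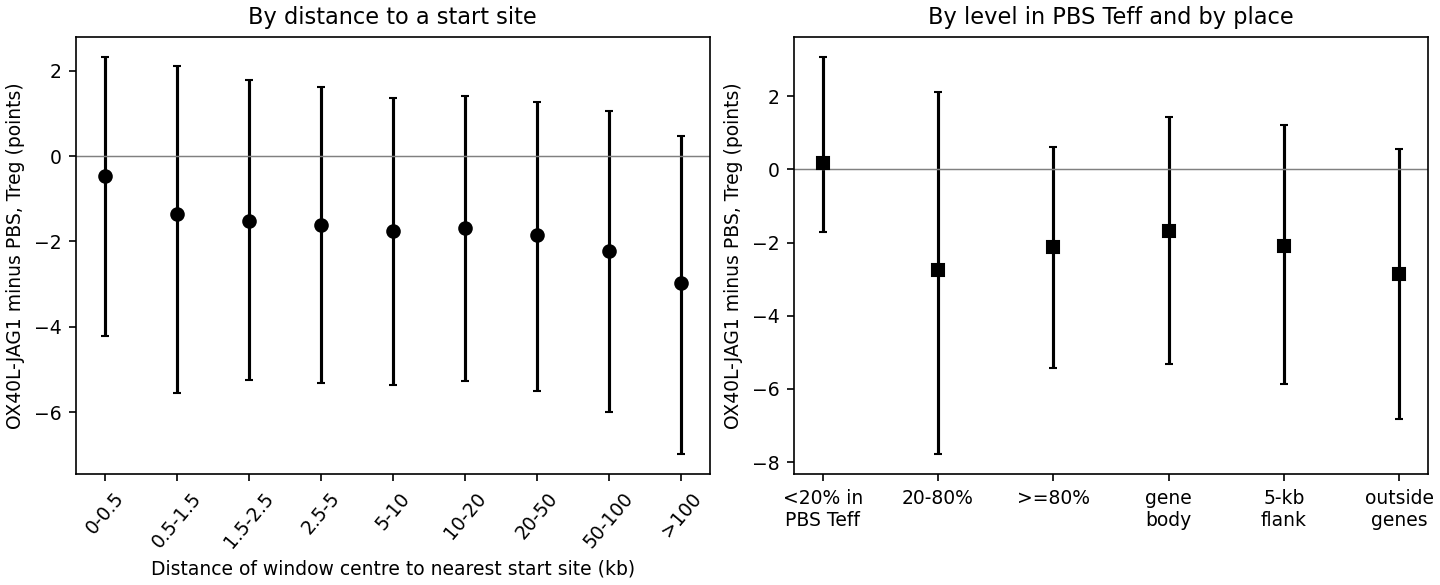
Median OX40L-JAG1 minus PBS difference in Treg (y axis, percentage points) by distance to the nearest start site (left, kb) and by level in PBS Teff and place (right). Bars span the 25th to the 75th percentile of windows. The medians run from -0.458 points next to start sites to -2.97 points beyond 100 kb.

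Single windows were then tested with Fisher's exact test (two-sided) and Benjamini-Hochberg adjustment over all windows, and calls required an adjusted p under 0.05 together with a difference of at least 20 points. Of the windows tested, 266 were lower (0.0602%) and 65 higher (0.0147%) in OX40L-JAG1 Treg. The median called lower window went from 85.7% to 56.8% (median of each library), and the median called higher window from 33.1% to 66.7%. Once the median window difference was subtracted, a z test with the same thresholds called 187 lower (0.0424%) and 175 higher (0.0396%). The share of lower windows among the calls went from 80.4 to 51.7%. The test changed along with the centring, so that their parts in this cannot be told apart. Both tests called 166 of the 266 lower and 65 of the 65 higher windows. Subtracting the negative median makes every higher difference larger, which favours the latter count. Reads that span several positions enter a window more than once. With all counts divided by 3 the test called 1 window lower and 0 higher, and with the PBS reads thinned to the depth of the OX40L-JAG1 library 196 lower and 47 higher.

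The place of the called windows is given as counts, with no test between the directions. Gene bodies held 83.1% of the higher windows and 51.9% of the lower windows, against 51.0% of all windows. A start site lay in 5 of the lower and 0 of the higher windows, against 1.10% of all windows. Of the 221 lower windows read in all 4 libraries, 144 were methylated at 80% or more in PBS Teff, as were 254293 of all 314531 such windows, and of the 55 higher windows 18 were under 20%, 31 at 20 to 80% and 6 at 80% or more there. Among the called windows 3 pairs stood side by side, among them a pair in Nvl and a pair in Batf. Only 18.2% of windows were tested, so that the windows beside a call often had no value.

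Treg identity genes were described first, as a check of the sort. At Foxp3, 0 of 5 windows were called, and their differences ran from -16.2 to 6.06 points with a median of -11.1. The Foxp3 window at chrX:7580001-7581000 stood at 43.9% in PBS Treg (66 reads) and 50% in OX40L-JAG1 Treg (48 reads), against 94.6% and 94.3% in the PBS and OX40L-JAG1 Teff libraries. Both Treg libraries therefore lay far below both Teff libraries, and the 2 Treg values differed by 6.06 points (95% Newcombe interval -12.1 to 23.8). The centre of this window lay 18 bp from a start site. The Foxp3 window at chrX:7584001-7585000, with its centre 4018 bp from one, went from 48.1% of 27 reads to 32.3% of 31 reads in Treg. At Il2ra, which encodes CD25, the marker used in the sort, 0 of 18 windows were called. The differences of the Il2ra windows ran from -15.7 to 13.9 points. The window with the lowest difference, at chr2:11648001-11649000, went from 62.3% to 46.6% in Treg (adjusted p = 0.673 by Fisher's exact test), and it stood at 93.0% and 95.7% in the Teff libraries. Summed over the gene and its 5-kb flanks, Foxp3 went from 69.8 to 63.8%, a difference of -6.04 points (-11.1 to -0.993). Il2ra, summed in the same way, went from 66.6 to 65.8%, a difference of -0.819 points (-3.36 to 1.72). Over 18753 protein-coding loci with 20 or more positions the median of this whole-gene difference was -1.86 points, with a 5th percentile of -6.89 and a 95th of 2.66 points, and 78.9% of loci were below 0.

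Ikzf2, which encodes Helios, a transcription factor of thymic Treg, had 2 lower windows of 61. Its window at chr1:69543001-69544000 went from 73.3% of 45 reads to 26.2% of 42 reads, with all 6 positions lower. The other, at chr1:69646001-69647000, went from 67.6% of 238 reads to 46.9% of 226 reads, while the Teff libraries both stood at 94.7% there; it was not called after centring. Over the whole gene the level went from 59.9 to 52.6%, or -7.29 points (-8.81 to -5.77). Cd83, an activation marker also used here as a Treg signature gene, had the largest fall over a whole gene among the 28 genes of that list, from 76.3 to 58.6% (-17.8 points, -22.4 to -13.0). Its window at chr13:43787001-43788000 went from 69.6% of 411 reads to 42.0% of 383 reads (adjusted p = 4.86e-10 by Fisher's exact test), with all 10 positions lower. At Ctla4, the inhibitory receptor through which Treg remove CD80 and CD86 from other cells, the whole gene went from 34.4 to 25.5% (-8.98 points, -14.9 to -2.95), with 0 windows called. Gpr83, a G protein-coupled receptor of Treg, lay at the other end, at 69.0% with PBS and 79.6% with OX40L-JAG1 (10.6 points, 5.29 to 15.8), again with 0 windows called. Of the 276 windows of the Treg signature list, 3 were lower (1.09%, against 0.0602% of all windows) and 0 higher (0.0147% of all windows), and their median difference was -1.71 points. After centring 2 were lower and 1 higher, where 0.0424% of all windows were lower and 0.0396% higher. This list too was chosen with earlier results of these data known.

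The largest called changes downward, ranked by the bound of the interval nearest 0, lay at genes of several kinds. At Enah, which encodes an actin regulator, the window at chr1:181950001-181951000 went from 69.4% of 49 reads in PBS Treg to 10.3% of 39 reads in OX40L-JAG1 Treg, or -59.1 points (-71.8 to -39.9). Of its 7 positions, 6 read 0% in the OX40L-JAG1 library and 1 read 80% from 5 reads. The 6 stand between chr1:181950833 and 181950912 with 5 or 6 reads each, so that the summed reads come from few molecules. The interval and the rank count these reads as independent. Sox6, a SRY-box transcription factor, went from 88.0 to 32.5%, with 5 of 6 positions lower. The window in Manba, which encodes lysosomal beta-mannosidase, and in the pseudogene Oaz2-ps went from 80% of 110 reads to 32.1% of 84 reads, with all 5 positions lower. Gpr55, a receptor for lysophosphatidylinositol, went from 52.8% of 199 reads to 14.5% of 145 reads (adjusted p = 5.78e-09 by Fisher's exact test), and all 9 positions were lower. The flank of Arrb1, which encodes beta-arrestin 1, went from 81.9 to 36.9%. The other 4 windows of this ranking lay in Igf2bp2, an RNA-binding protein (91.1 to 41.9%), Ntsr1, a neurotensin receptor (50 to 3.12%), Phactr2, a regulator of actin and protein phosphatase 1 (86.1 to 34.6%), and Tor3a, a torsin ATPase (82.1 to 30.3%). These 4 held 26 to 45 reads in each library.

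The largest called changes upward included a cytokine receptor gene of T cells. Il2rg, the common chain of the receptors for IL-2 and other cytokines, went from 36.5% of 52 reads to 80% of 45 reads at chrX:101266001-101267000, with its centre 1754 bp from the start site. All 5 positions were higher, with 25 to 50% against 75 to 85.7%. Those from chrX:101266624 to 101266641 each had 10 reads with PBS and 7 with OX40L-JAG1, so that the same molecules may be counted more than once. Epb41l2, a membrane skeleton protein, went from 13.5% of 96 reads to 64.3% of 56 reads, with all 7 positions higher. Dnah2, an axonemal dynein, rested on the most reads of the ranked higher windows, at 13.8% of 348 reads and 44.3% of 167 reads (adjusted p = 7.36e-09 by Fisher's exact test), with 20 of 22 positions higher. Asap2, a GTPase-activating protein for Arf, went from 19.3 to 58.4%, with all 10 positions higher. The remaining windows lay at Pdhx, a subunit of the pyruvate dehydrogenase complex (flank, 3.12 to 51.5%), Eya4, a transcriptional coactivator with phosphatase activity (6.67 to 47.4%), Camkk2, a calcium-dependent kinase, with the flank of the purinergic receptor gene P2rx4 (11.8 to 51.2%), Crtc3, a coactivator of CREB (9.09 to 50%), and Ugcg, glucosylceramide synthase (12.8 to 52.7%).

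**Figure D3:**
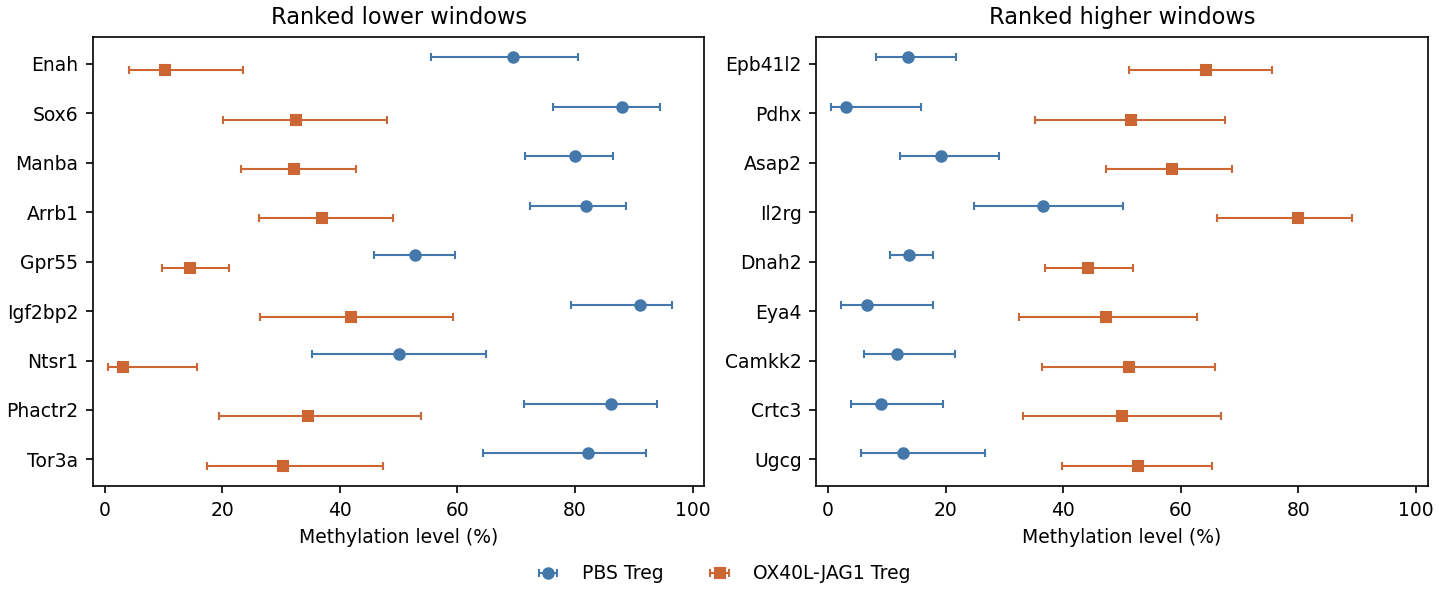
Methylation level (x axis, percent) of the ranked called windows that are named in the text, 9 lower (left) and 9 higher (right), in PBS Treg (circles) and OX40L-JAG1 Treg (squares). Bars are 95% Wilson intervals from the reads summed over the window. Enah leads the lower windows at 69.4 against 10.3%, and Epb41l2 stands at 13.5 against 64.3% among the higher windows.

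The windows beside these were measured in part, and no measured neighbour of the Enah, Sox6 or Epb41l2 window was called. Within 3 windows on either side, the measured neighbours of the Enah window differed by -9.41 to 4.76 points, and the measured neighbour of the Sox6 window by 1.36 points. The measured neighbour of the Epb41l2 window differed by 1.24 points. No neighbour was measured at Ntsr1, Pdhx, Il2rg and Crtc3. At windows of the gene lists named below, the neighbours also fell at Batf (-28.2 to -23.9 points), Tank (-26.6 to -12.3 points) and Tox (-16.3 to -11.1 points). Those of the Satb1 window differed by -0.914 to 0.261 points, and those of the Bach2 window by -0.836 to 2.30 points.

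Several genes of the naive and quiescent T cell state gained methylation in called windows. Their list was assembled with earlier results of these data known. Of its 20 genes, 5 had a higher window and 1 a lower one, against 0.238% of 19730 protein-coding genes with a higher window and 0.649% with a lower one. Of the 494 windows of the list, 8 were higher (1.62%, against 0.0147% of all windows) and 1 lower (0.202%, against 0.0602%), and their median difference was -0.0872 points against -2.17 for all windows. A median near 0 was not particular to this list. Windows in gene bodies had a median difference of -1.67 points, and those of the IL-2 receptor and STAT5 list one of -0.170 points. Tcf7, which encodes TCF-1, went from 41.5% of 164 reads in PBS Treg to 67.8% of 118 reads in OX40L-JAG1 Treg at chr11:52271001-52272000, and over the whole gene from 60.7 to 70.8% (10.2 points, 4.44 to 15.8). Satb1, a chromatin organiser that is repressed in Treg, had 2 higher windows, one from 34.3% of 300 reads to 62.03% of 266 reads (adjusted p = 1.29e-06 by Fisher's exact test, all 11 positions higher) and one from 61.1 to 86.9%. Over the whole Satb1 gene the difference was 7.11 points (5.22 to 8.98). Bach2, a repressor that restrains effector differentiation, had a window that went from 10.2 to 42.4% and one that went from 65.9 to 100%. In the latter every position read 100% in the OX40L-JAG1 library, from 5 to 8 reads, and 20 to 100% in the PBS library. Over the whole Bach2 gene, which held 87 windows, the difference was 0.688 points (-0.247 to 1.62).

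Ets1, an early T cell transcription factor, went from 11.03% of 281 reads to 35.2% of 199 reads (adjusted p = 6.28e-06 by Fisher's exact test), with all 6 positions higher. Foxp1, which maintains quiescence, had 2 higher windows of 143, from 49.2 to 87.8% and from 73.7 to 95.5%. Over the whole Foxp1 gene the difference was 0.523 points (-0.201 to 1.25). Stat4, the mediator of IL-12 signalling, was the member that fell, from 93.6% of 140 reads to 64.7% of 119 reads, with 9 of 10 positions lower.

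Effector and helper lineage genes went in both directions, with 3 lower (1.06%, against 0.0602% of all windows) and 1 higher (0.353%, against 0.0147%) of 283 windows. Batf, an AP-1 family factor of effector T cells and effector Treg, lost methylation over a stretch. Its neighbouring windows at chr12:85692001-85694000 went from 90.4 to 62.2% and from 91.6 to 62.7%, and the whole gene from 89.2 to 77.9% (-11.3 points, -14.5 to -8.12). Maf, a factor of IL-10-producing T cells, went from 58.5% of 272 reads to 38.3% of 201 reads with all 9 positions lower, and the whole gene differed by -9.88 points (-14.1 to -5.52). The Maf window was under 20 points once the median was subtracted and was no longer called. The flank of Ccr4, a chemokine receptor of Th2 cells and Treg, went up from 57.7% of 194 reads to 78.0% of 232 reads, with all 7 positions higher.

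Genes of the pathways of the ligands themselves were counted next. Of 208 windows at 25 genes of OX40 and NF-kB signalling, 2 were lower (0.962%, against 0.0602% of all windows) and 0 higher (0.0147% of all windows), with a median difference of -0.705 points. Both lay in Tank, a TRAF-binding regulator of NF-kB, and went from 54.4 to 13.9% and from 68.8 to 42.2%, the latter not called after centring. The receptor gene Tnfrsf4 had no window with 5 positions. Its 15 positions summed to 32.3% of 124 reads in PBS Treg and 20.6% of 126 reads in OX40L-JAG1 Treg (-11.6 points, -22.2 to -0.681). This was the lowest whole-gene difference of the 25 genes, where the median was -1.82 points and the highest 3.94 points, at Traf6. Birc2, an inhibitor of apoptosis in the same pathway, went from 69.2 to 58.0% over the whole gene (-11.2 points, -15.7 to -6.75), with 0 of 9 windows called. Of 310 windows at 28 Notch pathway genes, 0 were called in either direction, a count that the shares over all windows (0.0602% lower, 0.0147% higher) would also give in a list of this size, and the median difference was -0.797 points. The Notch target Hes1 had the lowest whole-gene difference of the 28 genes, from 46.5 to 33.8% (-12.7 points, -20.6 to -4.52). The median of these genes was -1.22 points, and the targets Hey1 and Heyl differed by 0.514 and 0.111 points. Among housekeeping genes the lowest difference was -13.7 points, at Actb.

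T cell receptor signalling genes had 2 higher windows (0.862%, against 0.0147% of all windows) and 1 lower (0.431%, against 0.0602%) of 232. Prkcq, which encodes protein kinase C theta, had windows in opposite directions. The window at chr2:11176001-11177000 went from 32.1 to 72.3% and that at chr2:11178001-11179000 from 75.5 to 34.0%, and each had 53 reads with PBS and 47 with OX40L-JAG1. In the latter, the positions from chr2:11178043 to 11178051 had 6 reads each with PBS and 5 with OX40L-JAG1, so that few molecules may be counted repeatedly. Cd3e, a chain of the T cell receptor complex, went from 47.9 to 59.4% over the whole gene (11.6 points, 7.43 to 15.7), with 0 windows called. This was the highest whole-gene difference of its list. Among 17 genes of the IL-2 receptor and STAT5 list the called window was that of Il2rg. Among checkpoint genes it was a window in Tox, a regulator of exhausted T cells, which went from 72.1 to 47.3% and was not called after centring. Proliferation genes (119 windows) and the enzymes and readers of DNA methylation (145 windows) had 0 called windows, as lists of this size would at the share over all windows. Mbd1 and Mbd3, which encode methyl-CpG-binding domain proteins, differed over their whole genes by 13.9 points (6.82 to 20.8) and by -14.3 points (-27.3 to -0.697), the latter over 15 positions. They were the highest and the lowest of their list.

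Among markers of other cells, 0 of 134 windows at B cell genes, 0 of 31 at CD8 T and NK cell genes and 0 of 61 at myeloid genes were called, which at the share over all windows says nothing particular about them. Their whole-gene levels had medians of 86.5 and 84.9% for the 10 B cell genes in PBS and OX40L-JAG1 Treg, 86.5 and 82.8% for the 11 CD8 T and NK cell genes, and 85.7 and 81.7% for the 13 myeloid genes. Single markers lay lower, with Pax5 at 55.0 and 52.8%, Eomes at 41.4 and 36.2% and Cebpb at 37.5 and 27.6%. The median whole-gene difference was then taken over list genes with 20 or more positions, as for the protein-coding loci. It was -3.11 points among 10 B cell genes, -3.39 among 10 genes of CD8 T and NK cells and -1.60 among 11 myeloid genes. Over the protein-coding loci it was -1.86 points. The part of a changed mix of CD4 T cell states in the results was not tested.

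**Figure D4:**
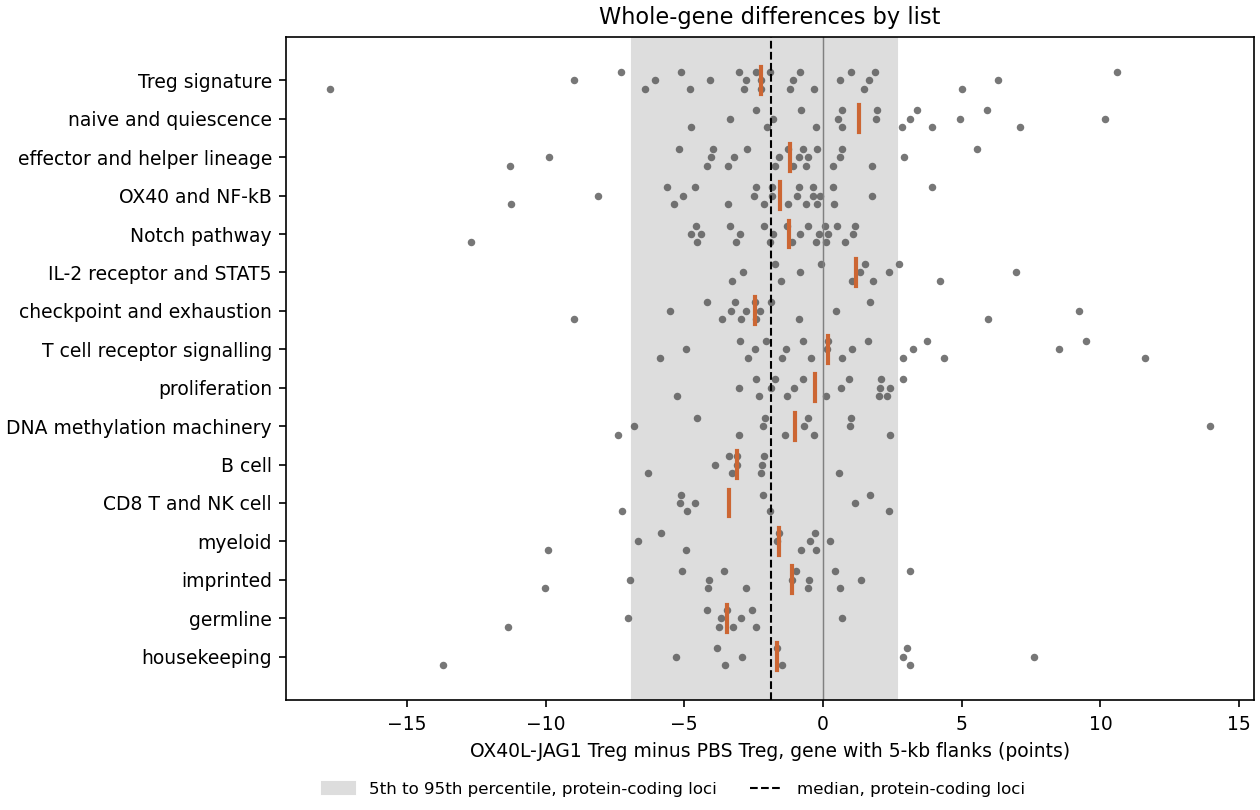
Difference between OX40L-JAG1 Treg and PBS Treg (x axis, percentage points) summed over each gene with its 5-kb flanks, 1 dot per gene with at least 20 positions, by list. Orange bars are list medians, and the dashed line and grey band give the median (-1.86) and the 5th to 95th percentile (-6.89 to 2.66) of 18753 protein-coding loci. The median of the naive and quiescence list stands at 1.30 points, that of the IL-2 receptor and STAT5 list at 1.19 points and that of the Treg signature list at -2.24 points.

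Promoters were looked at separately, a step chosen after the window results were seen. Of the promoter table, whose entries span 250 bases before to 50 bases after a start site, 1092 held 5 or more positions. Their median difference was 0 points, 2 were lower (0.183%) and 1 higher (0.0916%) by the same test and thresholds. The lower ones were Chic1 (-67.7 points, -80.1 to -45.4, adjusted p = 2.57e-05 by Fisher's exact test) and Bcorl1 (-26.5 points, -34.5 to -16.4), both on the X chromosome. The higher one was 1600014C10Rik (20.9 points, 11.5 to 29.7). Intermediate levels, of 20 to 80% in PBS Treg, were found at 23 of 43 promoters on the X and 156 of 1049 on autosomes. The 1-kb window around the Bcorl1 start was also called (33.7 to 10.9%), whereas the one around Chic1 was not (44.0 to 23.6%, adjusted p = 0.475 by Fisher's exact test). In Teff, the Chic1 promoter stood at 31.4% over 20 positions with PBS and 35.6% over 9 with OX40L-JAG1, and the Bcorl1 promoter at 41.8% over 16 and 20.6% over 15. These Teff values rest on other sets of cytosines than the 5 and 9 positions read in both Treg libraries, so that no comparison with Treg was made.

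The window at the Peg3 start, chr7:6730001-6731000, which also lies in Usp29, went from 82.6% of 253 reads in PBS Treg to 60% of 170 reads in OX40L-JAG1 Treg, with 13 of 14 positions lower. It was the called window among 202 at imprinted genes (0.495%, against 0.0602% of all windows called lower). Mael, a germline gene of the piRNA pathway, held the called window among 112 at germline genes (0.893%) and went from 68.4 to 41.3%. Of its 117 and 104 reads, 84 and 76 came from 1 position, which went from 58.3 to 27.6%. The others, with 6 to 9 reads each, stood at 88.9 to 100% with PBS and 55.6 to 100% with OX40L-JAG1.

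The same treatment in Teff involved 2 other libraries, so that the values can be set side by side without a shared library. Whether the Treg and Teff of a treatment came from the same mice is not given in the sources used here, so that differences between mice may enter both comparisons. Of the Treg windows, 314531 (71.2%) were also read in all 4 libraries, and there the median difference was -2.14 points in Treg and -2.82 points in Teff. Of the 221 lower Treg windows among them, 200 were below 0 in Teff, where 73.9% of all these windows were, and their median Teff difference was -9.94 points. In Teff 50 of these 221 were themselves called lower and 0 higher, where 0.47% of all windows were called lower. Of the 55 higher Treg windows, 42 were above 0 in Teff, where 25.5% of all were, with a median of 12.0 points. In Teff 17 of these were called higher, where 0.0884% of all windows were, and 1 was called lower. Across all windows the Treg and Teff differences had a Pearson r of 0.192, a description across windows that share their sequence and depth.

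Several of the named genes moved alike in both cell types. Cd83 went from 91.3 to 71.3% in Teff, Gpr55 from 76.6 to 38.6%, Stat4 from 95 to 66.7%, Maf from 82.1 to 54.8%, Ets1 from 13.96 to 37.6%, Tcf7 from 6.99 to 29.7% and Ugcg from 7.59 to 55.6%, and each was called in Teff. The Il2rg window stood at 63.0 and 56.9% in Teff and was not called there. At the Foxp1 window with the larger difference Teff stood at 80 and 79.0%, close to the OX40L-JAG1 Treg library (87.8%) and above the PBS Treg library (49.2%). The test between cell types given below called neither the Il2rg nor this Foxp1 window, nor the Ikzf2 window at chr1:69646001-69647000.

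A direct test of the difference between the Treg and Teff treatment effects (Wald test on the log odds, Benjamini-Hochberg adjusted) called 10 windows where the Treg difference was lower (0.00318%) and 24 where it was higher (0.00763%). Of these 34, 4 were also called in Treg, at Cyth3, Sox5, Peg3 with Usp29, and Rlbp1 with the flank of Fanci. In 19 of the 34 the Treg difference lay within 10 points of 0.

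**Figure D5:**
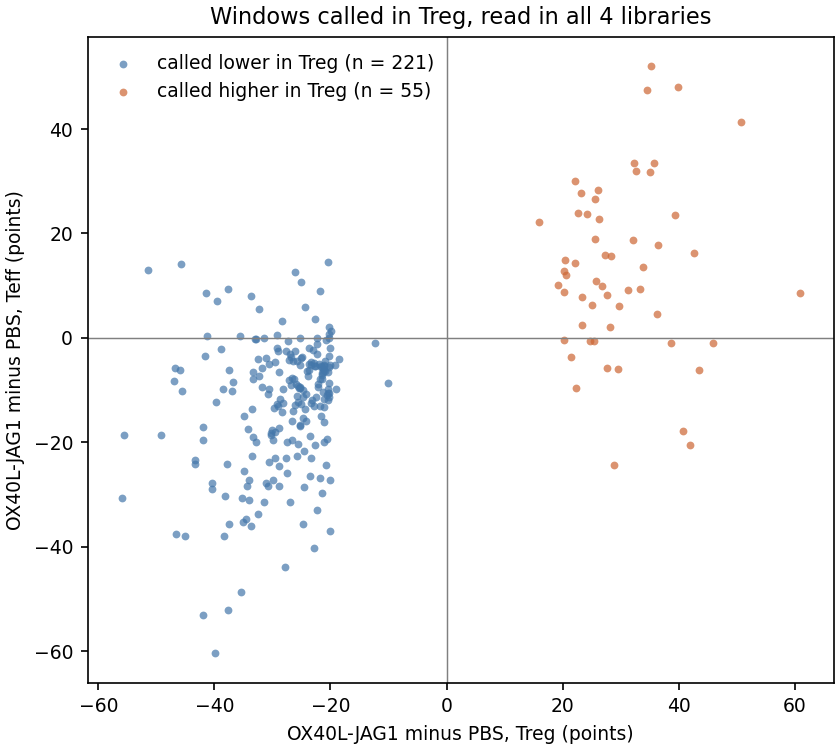
OX40L-JAG1 minus PBS difference in Treg (x axis) and in Teff (y axis), both in percentage points, for the windows called in Treg and read in all 4 libraries, 221 lower and 55 higher. Of the lower windows 200 lie below 0 in Teff, and of the higher windows 42 lie above 0.

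Few genes held more than 1 called window, and 16 genes held 2 each. Among them Batf had 2 of 6 windows, both lower. Ilrun, a regulator of inflammation, had 1 lower and 1 higher of 15, Ugcg had 2 higher of 17 and Nvl, a ribosome biogenesis ATPase, had 2 lower of 24. The Nvl windows were side by side and went from 61.8 to 15.1% and from 65.9 to 18.9%. The second Ugcg window went from 61.3% of 106 reads to 87.5% of 88 reads.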

How the data were processed

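Whole-genome bisulfite libraries of splenic Treg and Teff from NOD mice, 1 per group, were read from the table the authors deposited. Per the labels' protocols, Kapa Hyper reagents were used for library construction and the Zymo Lightning EZ kit for bisulfite conversion. Per the submitters' processing notes, Trimmomatic, Bismark and mm10 were used, with versions not given in the sources used here. Per the file headers, the deposited counts are total and methylated reads at each CpG cytosine, strands apart. Listed counts start at 5. The deposited fraction of methylated reads, headed as a percentage, runs from 0 to 1 and was not needed. Removal of duplicate reads is not given in the sources used here. NOD differs in sequence from the reference, so that positions changed in NOD can be missing or misread.

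Counts were summed over 1-kb windows with at least 5 positions of at least 5 reads in both Treg libraries. Windows were compared by Fisher's exact test (scipy 1.17.1 and numba 0.67.0 under python 3.11.15) with Benjamini-Hochberg adjustment, called at an adjusted p under 0.05 and at least 20 points. The centred test was a z test on the difference minus the median window difference. The test between cell types was a Wald test with 0.5 added per cell. Intervals are 95% Wilson for levels and Newcombe for differences. Genes are those of the RefSeq GRCm38.p6 gene table, with 5-kb flanks and without exon positions, so that exon, intron and UTR are not told apart. Promoters are from the RefSeq GRCm38.p6 promoter table, which is not complete.

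Named windows are Foxp3 and Il2ra, then the 10 lower and 10 higher windows at genes with names that were called both ways, ranked by the interval bound nearest 0, then each of 287 genes on 16 lists with a called window, then genes with several. Members and lists were chosen with earlier results of these data known. In simulated data with the same 441509 windows, the test found 38, 60 and 84% of windows lowered by 20, 30 and 40 points. It found 8, 48 and 74% of those raised, and called 17 unchanged windows. Lowered windows were drawn from highly methylated ones and raised windows from weakly methylated ones. Reads were drawn as independent, unlike real reads that span several positions, so that false calls in the real data may be more than 17. A few windows that this rule names are not reported here.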

Additional observations from a re-analysis of the deposited data

Results flagged for a closer look

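The treatment difference in Treg differed from that in Teff at 34 windows by a direct test (Wald test on the log odds, Benjamini-Hochberg adjusted over 314531 windows), with 1 library per group, and 7 of these were called in Treg or lay at a gene of the lists. At Cyth3, which encodes an exchange factor for Arf GTPases, the level went from 29.7 to 58.6% in Treg and from 84.6 to 60.3% in Teff, so that the Treg difference was 53.2 points above the Teff difference. At Pdcd1lg2, which encodes PD-L2, it went from 32.2 to 28.2% in Treg and from 90.6 to 40% in Teff, a gap of 46.5 points. In the flank of Prdm1, which encodes Blimp-1, it went from 72.7 to 54.9% in Treg and from 90.7 to 42.8% in Teff, a gap of 30.2 points. At Rplp0, with the flank of Pxn, it went from 22.0 to 36.0% in Treg and from 37.0 to 22.6% in Teff, a gap of 28.5 points.

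The Treg difference was the lower one at the other 3. At Sox5 the level went from 96.1 to 75.7% in Treg and from 74.7 to 89.2% in Teff, a gap of -35.0 points. At Rlbp1, with the flank of Fanci, it went from 73.6 to 49.2% in Treg and from 64.5 to 70.4% in Teff, a gap of -30.3 points. At Peg3, with Usp29, it went from 82.6 to 60% in Treg and from 70.8 to 74.4% in Teff, a gap of -26.2 points. These levels use the positions read in all 4 libraries, so that those at Cyth3 and Rlbp1 rest on fewer positions than the Treg comparison alone.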

How the results depend on the processing

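No paired analysis was possible because each group is 1 library, and for the same reason no library could be left out. With at least 10 reads per position, 81547 windows remained, with 89 lower and 20 higher, and after centring 49 and 42. Of the 331 calls, 73 had a value there and 63 were called again. With at least 10 positions per window 63 were lower and 26 higher, and at 30 points 101 and 32. With counts divided by 3, 1 was lower and 0 higher, and after centring 3 and 2. Fewer windows or a stricter threshold enter these counts by construction, and beyond that the cause was not tested. Windows of 2 kb, leaving out the deepest positions, positions read in all 4 libraries, leaving out the X, Y and mitochondrial windows, and thinning of the PBS reads moved the counts by less than 1.5 times (lower 196 to 396, higher 47 to 64). The pooled difference was -2.66 points with at least 10 reads per position, -2.85 with positions weighted equally and -2.74 over positions read in all 4. The test between cell types gave 8 lower and 16 higher at 30 points, and 7 and 17 with at least 10 reads per position.

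Of the 36 named windows, 34 stayed called after centring and 2, at Maf and Tox, did not. The 10 lower and 10 higher ranked windows were chosen among those called after centring, so that they could not fail here. The other higher windows could hardly fail either, since subtracting the negative median makes their differences larger. All 36 fell short of the threshold with counts divided by 3. At least 10 reads per position left a value for 8, of which 7 stayed called. No named window changed direction, which the median of -2.17 points is too small to bring about at differences of 20 points or more. Depth limits the rest: a window of 25 reads can show only large differences, and with 1 library per group the spread between animals is not measured.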

Other observations

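Other genes with a role in immune cells also held called windows; these were picked from the list of called windows after their values were seen. Lower in OX40L-JAG1 Treg were Morrbid, a long noncoding RNA that represses Bcl2l11 (44.1% of 229 reads to 14.2% of 148 reads, and 90.3 to 63.1% in Teff), Nfil3, a basic leucine zipper factor (38.8 to 5.45%, and 91.0 to 37.9% in Teff), and Bcl2a1d, an antiapoptotic gene with near-identical copies whose reads may be shared (90.6 to 56.9%, and 83.8 to 47.8% in Teff). Slamf6, a surface receptor of T cells, went from 44.3 to 15.3% and Srgn, the proteoglycan serglycin, from 57.6 to 21.1%. Ncor1, a nuclear corepressor, went from 91.8% of 122 reads to 56.9% of 116 reads, and from 77.5 to 62.5% in Teff, where it was not called.

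Higher in OX40L-JAG1 Treg were Ptk2b, the kinase PYK2 (14.6% of 198 reads to 36.8% of 95 reads, and 5.11 to 35.2% in Teff at chr14:66189001-66190000), St6gal1, a sialyltransferase (30.9 to 66.7%, and 24.4 to 58.0% in Teff), and Itm2a, a membrane protein on the X chromosome (24.7 to 58.0%, and 38.0 to 47.5% in Teff). Another Ptk2b window, at chr14:66251001-66252000, went the other way, from 73.6 to 65.0% in Treg, where it was not called, and from 91.9 to 52.4% in Teff, with a Treg difference 30.9 points above the Teff difference, the smallest adjusted p of the test between cell types. A lower window at Smarca5, the ISWI ATPase, held the start site of the gene and went from 59.1% of 93 reads to 18.8% of 85 reads, while Teff stood at 44.2 and 52.9%.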
